A study of Homo sapiens with 9 samples.

Results

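The 9 genes described here are LCN2, C3, UBD, SAA1, SAA2, CFB, C1R, C1S and SERPING1, chosen by symbol from the 19356 genes of the table, with their differences between these groups already known. All 9 were among the 16457 genes that passed the filter on low values. Polyadenylated RNA of LN229, an established human glioblastoma cell line, was sequenced in 3 libraries each of B3 and C4, which are CRISPR lines with ARNT2 as the target, and of wild-type cells (WT). All cells grew in DMEM with 5% FBS, and no cytokine or other agent is named. The labels do not say whether B3 and C4 each grew from a single cell. Each knockout group is 1 line, so what belongs to that line and what belongs to the knockout cannot be told apart within it. C4 is the name of a cell line throughout and not complement component 4, which is written by its gene symbols C4A and C4B.

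Complement is a cascade of proteases and opsonins found in plasma and also made locally by many tissues, including astrocytes and glioma cells. The proteases C1r and C1s start the classical pathway, factor B drives the alternative pathway, both converge on C3, and the C1 inhibitor holds C1r and C1s in check. Lipocalin-2 and the serum amyloid A proteins are acute-phase proteins, and the ubiquitin-like modifier FAT10, encoded by UBD, marks proteins for the proteasome. Their genes are known as targets of interleukin-1, interleukin-6, tumour necrosis factor and interferons through NF-kB, C/EBP and STAT factors.

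The 250 bases before the RefSeq start site of LCN2, UBD and CFB are shown because LCN2 and UBD were low in both knockout lines and CFB was low in B3 and high in C4. They are RefSeq sequence on GRCh38.p14, written 5′ to 3′ along the strand of the gene, with every motif match described below in capitals.
LCN2, chr9:128149203-128149452, plus strand: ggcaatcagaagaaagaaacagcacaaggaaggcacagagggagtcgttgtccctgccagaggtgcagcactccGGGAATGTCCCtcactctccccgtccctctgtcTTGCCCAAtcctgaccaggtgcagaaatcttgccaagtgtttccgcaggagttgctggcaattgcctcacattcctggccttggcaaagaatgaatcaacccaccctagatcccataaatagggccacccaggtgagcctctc
UBD, chr6:29559733-29559982, minus strand: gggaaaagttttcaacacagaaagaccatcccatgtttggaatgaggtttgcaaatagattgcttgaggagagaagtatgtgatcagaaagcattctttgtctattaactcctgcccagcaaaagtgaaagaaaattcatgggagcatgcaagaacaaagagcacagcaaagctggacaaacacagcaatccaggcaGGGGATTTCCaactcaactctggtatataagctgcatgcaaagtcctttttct
CFB, chr6:31945845-31946094, plus strand: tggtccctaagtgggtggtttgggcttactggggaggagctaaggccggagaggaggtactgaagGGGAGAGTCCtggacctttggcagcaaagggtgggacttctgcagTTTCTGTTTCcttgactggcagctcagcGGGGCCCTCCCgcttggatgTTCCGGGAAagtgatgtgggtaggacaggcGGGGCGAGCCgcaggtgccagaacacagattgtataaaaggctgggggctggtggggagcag

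Motifs were searched on both strands, and the bases are counted back from the RefSeq start site. The GENCODE gene starts given below lie upstream of the window for LCN2 and CFB and inside it for UBD. The distances therefore hold for the RefSeq start alone. The NF-kB letters GGGNNNNNCC matched in the LCN2 promoter as GGGAATGTCC, 176 to 167 bases before the start. An overlapping match lay 1 base further on, on the opposite strand. In the UBD promoter they matched as GGGGATTTCC, 53 to 44 bases before the start, and in the CFB promoter at 4 places, of which 2 overlap. This loose pattern occurred in 54.4% of 35116 RefSeq promoter windows of the same length. The C/EBP letters TTNNGNAA, held by 33.2% of windows, matched on the opposite strand of LCN2, which reads TTGCCCAA on the strand shown. The STAT letters TTCNNNGAA, held by 6.57%, matched in CFB as TTCCGGGAA, 92 to 84 bases before the start. The interferon response letters GAAANNGAAA, held by 3.02%, matched on the opposite strand of CFB as TTTCTGTTTC, 140 to 131 bases before the start, and in neither LCN2 nor UBD. The cores ACGTG and GCGTG, known as the letters bound by HIF and aryl hydrocarbon receptor dimers of the ARNT family, occurred in 18.5% and 32.2% of windows and in none of these 3. The promoter entries of C1R, which are not shown, also held NF-kB, C/EBP and STAT matches, the STAT match as TTCCTGGAA. A match is a description of the sequence and not a bound site.

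The authors deposited log2 values that they had scaled between libraries, and the read depth is unknown. The median SD between replicates was 0.009 for genes with a mean log2 value under 2, 0.035 at 4 to 6 and 0.056 at 8 to 10, so replicates of weak genes lay closest together. Whether differences of weak genes are understated was not tested. Library medians lay between 10.62 and 10.65. The SD across genes of the difference between a pair of libraries was 0.179 to 0.234 between groups and 0.055 to 0.073 within a group. The targeted gene ARNT2 stood at 11.89 ± 0.02 in B3, 12.14 ± 0.09 in line C4 and 13.57 ± 0.02 in WT (SD, n = 3 each), which is 31.1% of WT in B3 and 37.1% in C4. By exact permutation, two-sided, either line gave p = 0.1, the lowest possible with 3 against 3 libraries. No label says that replicates were separate cultures, and p-values therefore reflect the spread of these samples alone, which may be technical. Differences are given ± SE from limma, a linear model fitted to all tested genes. In bulk RNA, fewer cells of a type and less RNA per cell cannot be told apart.

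Genes with a Benjamini-Hochberg adjusted p below 0.05 count as called. Of all genes tested, 24.6% were called lower and 23.2% higher in B3 than in WT, and all 9 genes were called lower in B3. In line C4, 28.0% of all genes were called lower and 28.2% higher than in WT. There, 6 of the 9 genes were called lower, 2 (CFB and SAA2) were called higher, and SAA1 was not called. Between the lines, 27.8% of all genes were called lower and 28.6% higher in C4 than in B3, and of the 9 genes 2 (LCN2 and UBD) were called lower and 6 higher, with C3 not called. Higher genes made up 48.5% of all called genes in B3 and 50.2% in C4, and 64.2% and 61.5% after libraries were scaled to a common total, which moved the median difference of all genes by 0.03. The 9 genes were chosen for their differences between these groups, so their calls describe the choice and nothing is read from them. The median difference of the 9 genes was -1.12 in B3 and -0.52 in C4 against WT, where the median of all genes tested was 0.00 in each comparison.

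**Figure D1:**
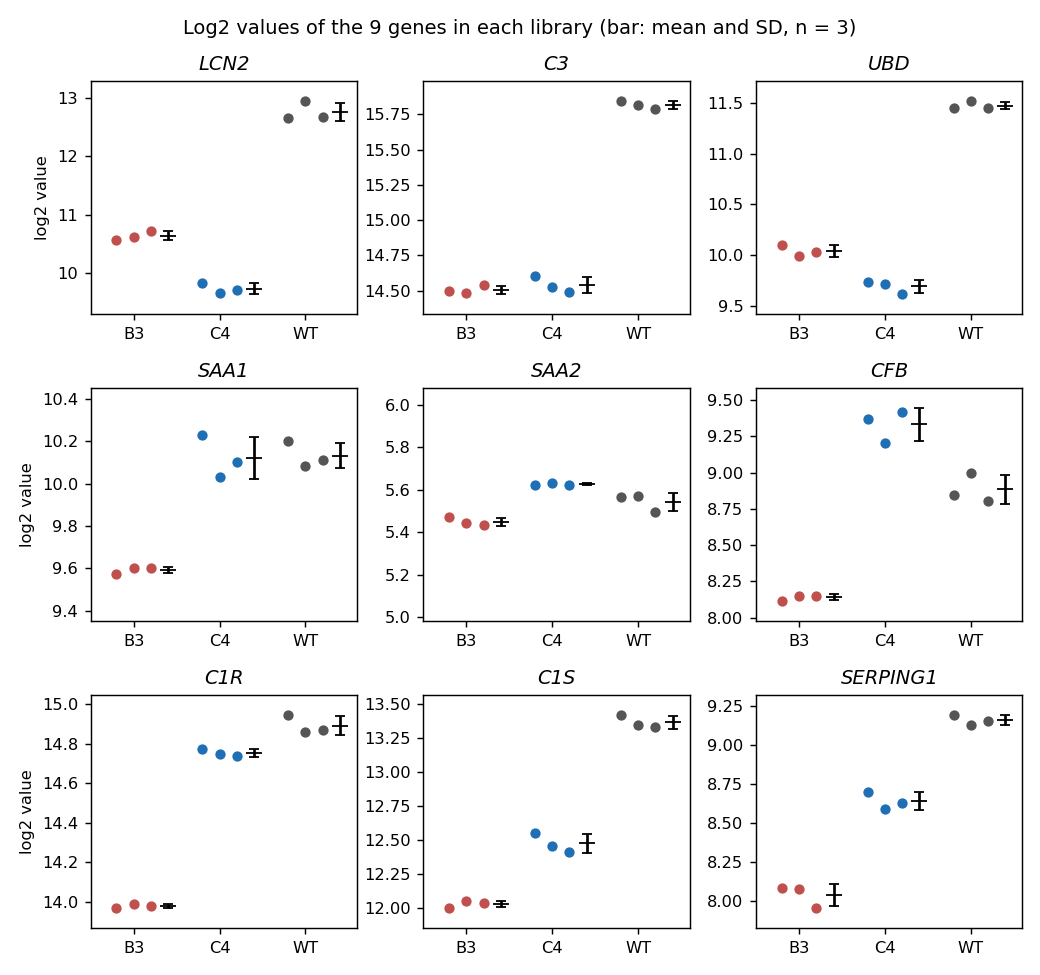
Log2 value of each of the 9 genes (vertical axis, a scale of its own per gene) in the 3 libraries of B3, C4 and WT, 1 point per library, with the mean and SD at the right of each group. LCN2, C3 and UBD are low in both knockout lines, CFB is low in B3 and high in C4, and SAA1 is low in B3 alone.

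LCN2 had the largest difference of the 9 genes. It encodes lipocalin-2, a secreted carrier of iron-binding siderophores that is known from reactive astrocytes of the mouse (ENSG00000148346, chr9:128149071-128153455, plus strand, GENCODE 29 on GRCh38). Its log2 values were 10.57, 10.62 and 10.72 in B3, 9.84, 9.66 and 9.70 in C4, and 12.66, 12.94 and 12.68 in WT. The 3 groups did not overlap, and all 6 knockout libraries lay below every WT library. The difference from WT was -2.12 ± 0.06 in B3 and -3.02 ± 0.06 in C4, which left 23.0% and 12.3% of the WT level. Line C4 lay below B3 by a further -0.90 ± 0.06. In the order of all 16457 differences from the lowest, LCN2 stood at place 6 in B3 and at place 2 in C4. The SD of the 3 libraries was 0.08 in B3, 0.09 in C4 and 0.16 in WT, where the second library stood above the other two.

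UBD shared the order of LCN2, with C4 lowest and WT highest. The gene encodes FAT10, which interferon-gamma and tumour necrosis factor are known to induce (ENSG00000213886, chr6:29555515-29559925, minus strand). Values were 10.10, 9.99 and 10.04 in B3, 9.74, 9.72 and 9.62 in C4, and 11.45, 11.51 and 11.45 in WT. No group overlapped another, and the SD of the replicates was 0.06 in B3, 0.07 in C4 and 0.04 in WT. The difference from WT was -1.43 ± 0.04 in B3 and -1.78 ± 0.04 in C4, or 37.2% and 29.2% of the WT level. Between the lines, C4 minus B3 was -0.35 ± 0.04.

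C3 encodes the central complement protein, whose cleavage yields the opsonin C3b and the peptide C3a (ENSG00000125730, chr19:6677704-6730562, minus strand). It was the most abundant of the 9 genes in WT per length and stood at nearly the same level in both knockout lines. The gene had log2 values of 14.50, 14.48 and 14.54 in B3, 14.60, 14.53 and 14.49 in C4, and 15.84, 15.81 and 15.79 in WT. Both knockout lines lay below WT without overlap, and they overlapped each other. The differences were -1.31 ± 0.03 in B3 and -1.27 ± 0.03 in C4 against WT, or 40.4% and 41.4% of the WT level. C4 minus B3 was 0.04 ± 0.03, which does not show that the lines were equal.

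C1R and C1S, the paired proteases of the C1 complex, lie 9.17 kb apart on chromosome 12 on opposite strands. For C1R (ENSG00000159403, chr12:7080199-7092607, minus strand) the values were 13.97, 13.99 and 13.98 in B3, 14.77, 14.75 and 14.74 in C4, and 14.95, 14.86 and 14.87 in WT. For C1S (ENSG00000182326, chr12:6988259-7071032, plus strand) they were 12.00, 12.04 and 12.03 in B3, 12.55, 12.46 and 12.41 in C4, and 13.42, 13.34 and 13.33 in WT. Both genes had the order B3, C4, WT from low to high with no overlap, but C4 lay near WT for C1R and nearer to B3 for C1S. C1R differed from WT by -0.91 ± 0.02 in B3 and -0.14 ± 0.02 in C4, and C1S by -1.34 ± 0.03 and -0.89 ± 0.03. Within a library, C1R exceeded C1S by 1.96 ± 0.01 in B3, 2.28 ± 0.05 in C4 and 1.53 ± 0.01 in WT (SD, n = 3 each, log2), so the balance of this pair differed between all 3 groups.

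SERPING1 encodes the C1 inhibitor, the serpin that blocks C1r and C1s (ENSG00000149131, chr11:57597387-57614853, plus strand). Its values were 8.08, 8.08 and 7.96 in B3, 8.70, 8.59 and 8.63 in C4, and 9.20, 9.13 and 9.15 in WT. The inhibitor gene thus had the same order as the proteases it blocks, without overlap. It differed from WT by -1.12 ± 0.05 in B3 and -0.52 ± 0.05 in C4, or 45.9% and 69.7% of the WT level. C1R stood at 53.2% and 90.8%, and C1S at 39.6% and 53.9%.

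CFB, which encodes the protease factor B of the alternative pathway C3 convertase, was on opposite sides of WT in the 2 lines (ENSG00000243649, chr6:31945650-31952084, plus strand). Its log2 values were 8.12, 8.15 and 8.15 in B3, 9.37, 9.20 and 9.42 in C4, and 8.85, 9.0 and 8.81 in WT. All B3 libraries lay below WT and all C4 libraries above it. The difference from WT was -0.74 ± 0.06 in B3 and 0.45 ± 0.06 in C4, or 59.7% and 136% of the WT level. Between the lines, C4 minus B3 was 1.19 ± 0.06, the widest gap of the 9 genes.

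SAA1 and SAA2 encode the acute-phase apolipoproteins serum amyloid A1 and A2 and lie 17.5 kb apart on chromosome 11 (SAA1, ENSG00000173432, chr11:18266174-18269977, plus strand; SAA2, ENSG00000134339, chr11:18239223-18248643, minus strand). They are near-identical copies, so how reads were divided between them is uncertain. SAA1 values were 9.58, 9.60 and 9.60 in B3, 10.23, 10.03 and 10.10 in C4, and 10.20, 10.08 and 10.11 in WT. B3 lay below the other groups, and C4 overlapped WT. The difference from WT was -0.54 ± 0.05 in B3 and -0.01 ± 0.05 in C4. SAA2 values were 5.47, 5.44 and 5.43 in B3, 5.62, 5.63 and 5.62 in C4, and 5.56, 5.57 and 5.49 in WT. These groups did not overlap, but the differences from WT were only -0.09 ± 0.03 in B3 and 0.08 ± 0.03 in C4, at a level where replicates of all genes lie close together. The call of SAA2 in C4 was lost without the filter on low values, without WT replicate 3 and without any single C4 replicate. That in B3 was lost after scaling to a common total and without WT replicate 1, WT replicate 2 or B3 replicate 3.

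**Figure D2:**
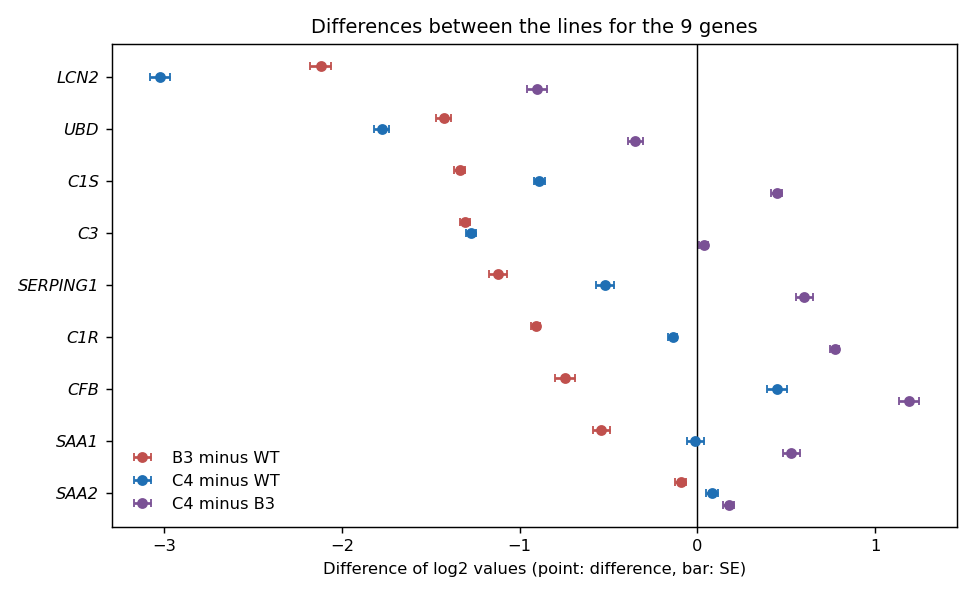
Difference of log2 values (horizontal axis) for each of the 9 genes in B3 minus WT, C4 minus WT and C4 minus B3, with bars of 1 SE. C3 lies at about the same place in both knockout lines, LCN2 and UBD are lower in C4 than in B3, and the other 6 are higher in C4 than in B3.

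Per kilobase of annotated exon, which allows genes to be compared, the antilog level of C3 was 2793 in B3, 2863 in C4 and 6920 in WT. In WT, only 5.26% of genes with an annotated length stood above C3, against 15.0% in B3 and 14.5% in C4. The WT order from high to low was C3, C1R, LCN2, UBD, C1S, SAA1, SERPING1, CFB and SAA2, and no neighbours in it overlapped between libraries. LCN2 had a level per kilobase of 997 in B3, 534 in C4 and 4351 in WT, and 37.2%, 51.8% and 9.07% of genes stood above it in those groups. In B3 the order was C3, C1R, LCN2, UBD, SAA1, C1S, SERPING1, CFB and SAA2, where C3 overlapped C1R, LCN2 overlapped UBD, and UBD overlapped SAA1. The order in C4 was C1R, C3, SAA1, C1S, UBD, LCN2, CFB, SERPING1 and SAA2 with no overlap between neighbours, which put LCN2 in place 6 and C1R in first place. The length counts all annotated exons of a gene, so the level of genes with long, rarely used exons is understated.

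C1R and C1S differed from the other 7 genes in their surroundings in B3. Among the 55 other tested genes that start within 1 Mb of C1R, the median difference from WT was -0.24 in B3, with 41 called lower and 0 higher. In C4 the median of these genes was 0.03, with 6 called lower and 12 higher. No neighbour within 1 Mb was as low in B3 as C1R or C1S, which lay below the median of their own neighbours by -0.67 and -1.09. Within 5 Mb the B3 median was -0.18 over 94 genes, and 1 of them, A2M, was as low as C1R. Around LCN2, C3, UBD, the SAA genes, CFB and SERPING1, the 1 Mb medians in B3 lay between -0.02 and 0.04. In C4 the medians around these genes lay between -0.03 and 0.09, the highest being that of CFB. Of the 72 genes around CFB, 10 were called lower and 34 higher in C4, against 28.0% and 28.2% of all genes tested. Whether the regional difference on chromosome 12 has a part in the low C1R and C1S values of B3 was not tested.

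**Figure D3:**
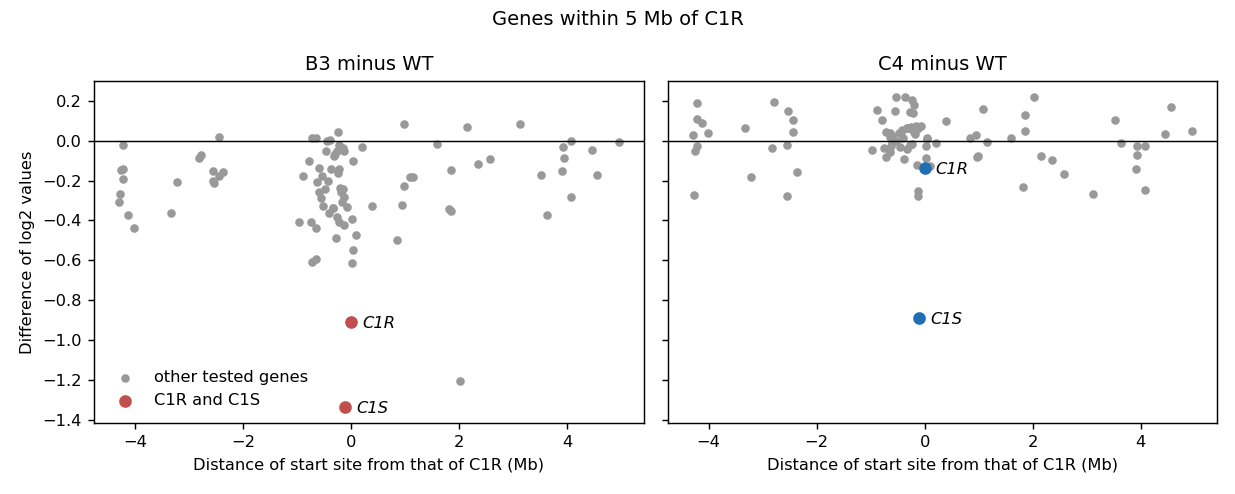
Difference of log2 values from WT (vertical axis) in B3, left, and C4, right, for tested genes that start within 5 Mb of C1R, by distance from its start site (horizontal axis, Mb). In B3 most of the 94 neighbours lie below 0 with C1R and C1S lower still, and in C4 they lie around 0 with C1S far below them.

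Few other complement components could be tested. Of 13 listed genes of the classical and lectin pathways 4 were tested, while C1QA, C1QB, C1QC, C4A and C4B, which encode C1q and complement component 4, were not. C1RL, a protease gene that neighbours C1R, fell by 0.61 ± 0.03 in B3 (limma, adjusted p = 7.13e-15), and its difference in C4 was -0.03 ± 0.03. C1RL is also 1 of the 55 genes within 1 Mb of C1R, whose median in B3 was -0.24. It was the 1 gene of this list called in B3, against a list median of -0.04. In C4 the 1 call was C2, the protease partner of complement component 4, at -0.12 ± 0.04 (adjusted p = 0.0179), and it was lost without WT replicate 1, WT replicate 2 or C4 replicate 2 and after scaling to a common total. Among 5 tested genes of the alternative and terminal pathways, C5, the source of the C5a peptide, fell by 0.12 in B3 (adjusted p = 0.00177) and fell by 0.14 in C4 (adjusted p = 0.000356). The other 4, CFD, CFP, C7 and C8G, were not called, and all were weak, with group means between 3.71 and 4.73.

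Complement regulators fell in B3 more often than they rose. Of 9 tested, 6 were called lower and 0 higher in B3, with a median of -0.20, while 2 were called lower and 3 higher in C4, with a median of 0.03. CFI, the protease that cleaves C3b, differed by -0.41 in B3 and 0.09 in C4, and clusterin, CLU, by -0.42 and 0.24. CD55, a membrane inhibitor of C3 convertases, fell by 0.29 ± 0.03 in C4 (limma, adjusted p = 1.41e-08). CPN1, a carboxypeptidase that inactivates C3a and C5a, rose by 0.49 ± 0.05 in C4 (adjusted p = 1.91e-08) and was at -0.02 in B3.

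Differences of the complement receptors were small, but most of these genes were weak. Group means lay between 4.03 for ITGAX and 6.50 for ITGB2, apart from C1QBP at 14.64 to 14.74. Of 6 tested, 3 were called lower in B3 and 2 in C4, none was called higher, and the calls in B3 came to 1 without WT replicate 2, B3 replicate 1 or B3 replicate 2, and in C4 to 1 without WT replicate 3. After scaling to a common total, 1 was called lower and 1 higher in B3, and 1 lower in C4. ITGB2, the shared beta chain of the C3 fragment receptors, was at -0.10 ± 0.04 in B3 (limma, adjusted p = 0.0346), and C1QBP, a binding protein of C1q, at -0.10 ± 0.02 in C4 (adjusted p = 0.000812).

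Other acute-phase genes did not move together. Of 19 tested, 6 were called lower and 2 higher in B3, and 4 lower and 4 higher in C4, with medians of 0.03 and 0.02. Higher calls in B3 came to 1 without B3 replicate 1 and to 4 without B3 replicate 2. CP, the copper ferroxidase ceruloplasmin, fell by 0.93 in B3 and fell by 1.08 ± 0.05 in C4 (limma, adjusted p = 2.89e-15). A2M, a broad protease inhibitor whose gene starts 2.02 Mb from C1R, fell by 1.20 ± 0.03 in B3 (adjusted p = 4.72e-19) and was at 0.22 in C4. PTX3, a pattern-recognition pentraxin, was at 0.40 in B3 and -0.69 in C4, and AGT, angiotensinogen, rose by 0.94 ± 0.05 in C4 (adjusted p = 1.23e-13).

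SLC22A17, which encodes a lipocalin-2 receptor, was lower in both knockout lines, as LCN2 was. Its values were 7.91, 7.94 and 7.98 in B3, 8.26, 8.29 and 8.29 in C4, and 8.98, 9.08 and 9.17 in WT. The groups did not overlap, and B3 was the lowest of them, whereas C4 was the lowest for LCN2. The gene fell by 1.14 ± 0.05 in B3 (limma, adjusted p = 1.08e-14) and fell by 0.80 ± 0.05 in C4 (adjusted p = 2.75e-12). LRP2, megalin, another lipocalin-2 receptor, differed by -0.55 in B3 and by 0.75 ± 0.04 in C4 (adjusted p = 2.62e-13). In all, of 13 tested genes for receptors, partners and iron handling, 5 were called lower and 5 higher in B3, and 4 lower and 6 higher in C4.

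The machinery that uses FAT10 did not follow UBD. Of 11 genes for its activation, binding and degradation, 0 were called lower and 7 higher in B3, and 3 were called lower and 5 higher in C4, with medians of 0.07 and 0.04. MAD2L1, a spindle checkpoint protein that binds FAT10, rose by 0.21 in B3 (limma, adjusted p = 2.07e-06). PSMB10, an interferon-inducible immunoproteasome subunit, rose by 0.39 in C4 (adjusted p = 2.91e-09), where NUB1, a FAT10-binding factor, was at -0.18.

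Known inducers of these genes and their transcription factors were lower in most cases. Of 26 tested, 18 were called lower in B3, and 15 lower and 7 higher in C4, with medians of -0.14 and -0.17. IL1A, the cytokine interleukin-1 alpha, fell by 0.69 in B3 and fell by 1.66 ± 0.04 in C4 (limma, adjusted p = 1.17e-19). IL1B fell by 0.83 ± 0.05 in B3 (adjusted p = 5.61e-13) and fell by 1.16 in C4. For LIF, an interleukin-6 family cytokine, the differences were -0.53 in B3 and -1.05 in C4. NFKBIZ, the NF-kB cofactor needed for LCN2 induction in mouse cells, was at -0.21 in B3 and -0.46 in C4, and CEBPD at -0.20 and -0.51. IRF1 and SOCS3, known targets of STAT factors, were also lower in B3, at -0.19 and -0.17, but were higher in C4, at 0.11 and 0.28. Whether any of these genes has a part in the levels of the 9 was not tested.

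**Figure D4:**
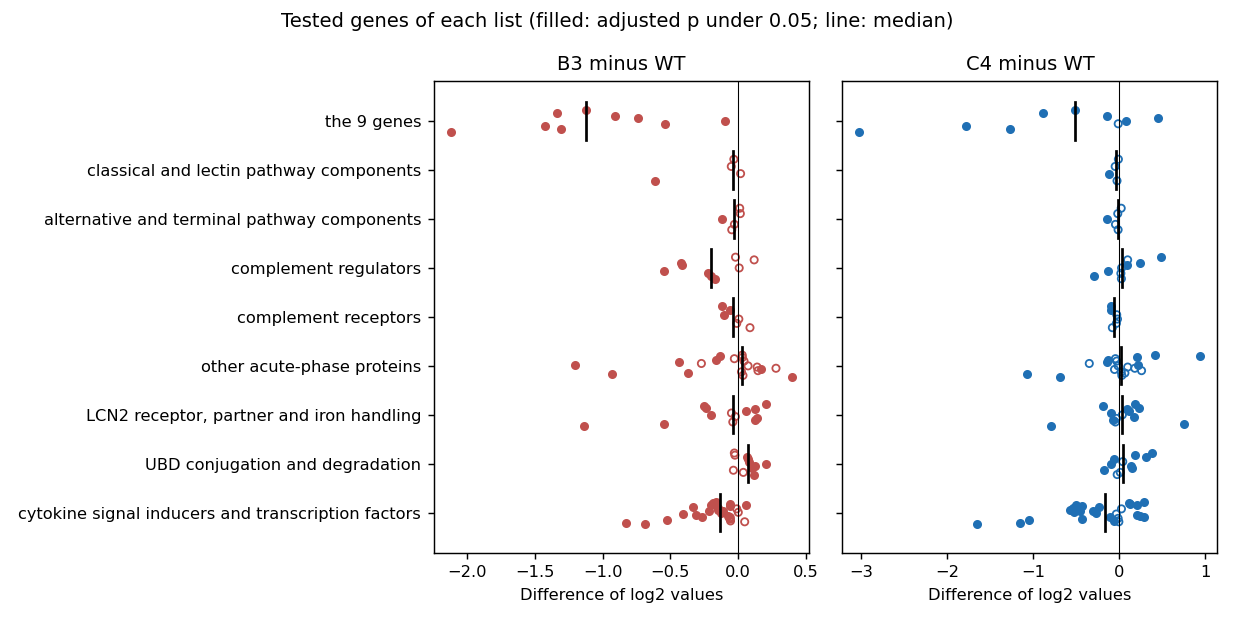
Difference of log2 values from WT (horizontal axis) in B3, left, and C4, right, 1 point per tested gene, for the 9 genes and 8 lists of related genes. Filled points have an adjusted p under 0.05, lines mark medians, and the axes of the panels differ in range. The 9 genes, chosen for their differences, have medians of -1.12 and -0.52, and the other lists lie nearer to 0.

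The patterns most like those of the 9 genes were sought by the root mean square distance of centred log2 values over the 9 libraries, among 13532 genes. LCN2 had no close match, with ABCA8, a lipid transporter, nearest at 0.60, PAGE2 at 0.74, PLBD1 at 0.79 and UBD at 0.83. The distance was not scaled to the size of a difference, and few genes fell as far as LCN2. The lack of a close match therefore does not show that the pattern of LCN2 was distinct apart from its size. Close matches existed for C3, with GAGE1 at 0.06, SELENBP1 at 0.09 and ABCA6 at 0.10. GAGE1 and PAGE2 belong to multicopy families whose counts are uncertain. IGFBP3, a carrier of insulin-like growth factors, was nearest to UBD at 0.08, with differences from WT of -1.39 in B3 and -1.73 in C4. CFB lay nearest to AKR1C2 at 0.09, and SAA1 to TIMP1 at 0.04.

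Most immune cell and hepatocyte markers were low, and CD68 and SERPINA1 were the strongest of them. Of 10 immune cell markers 6 were in the table, and their summed antilog lay at 2117 to 2192 in B3, 1828 to 1840 in C4 and 1807 to 1851 in WT, most of it from CD68, which tumour cells also express. CD68 was higher by 0.27 in B3, and PTPRC, the pan-leukocyte marker, lay between 2.35 and 2.40 in B3, at 2.35 in each C4 library, and between 2.36 and 2.39 in WT. The 10 hepatocyte markers summed to 628 to 1172 in B3, 627 to 934 in C4 and 769 to 918 in WT. SERPINA1 was the strongest of these 10, with group means of 8.83 in B3, 8.75 in C4 and 9.10 in WT. Its differences from WT, -0.27 in B3 and -0.35 in C4, were not called. Group means of TTR lay at 6.85 to 7.11 and those of ALB at 3.96 to 3.99. All 10 astrocyte and glioma markers summed to 526110 to 548496 in B3, 480523 to 502724 in C4 and 482306 to 493080 in WT. VIM, CD44 and NES were strong. Astrocyte markers were mixed in WT, with S100B at 16.18 and SLC1A3 at 12.29, but GFAP at 6.63, AQP4 at 3.95 and ALDH1L1 at 1.31.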

How the data were processed

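Polyadenylated RNA was measured in 3 libraries per group. The deposited table holds log2 values per gene, scaled between libraries by the authors. The tools were STAR 2.7.3a, DESeq2 and Subread 1.6.3, on build hg38, per the submitters' processing notes, which give no role or order. The transform is not named. Replicates of weak genes differ very little, and depth is unknown. The 9 genes, the related lists and the tests were chosen with earlier results of these data known.

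A filter on the mean antilog, at least 10, left 16457 of 19356 genes, tested in 1 limma fit (3.58.1, R 4.3.3) with a coefficient per group and an intensity trend. It was tested on simulated data with 200 changed genes. Tests were two-sided with Benjamini-Hochberg adjustment over all genes tested. Related genes were named by the largest called difference per list and direction, given a mean antilog of 50 or more, and others named are examples chosen after their values were seen. Positions and exon lengths are from GENCODE 29, which gave 92.6% of tested genes a single position. Promoters came from RefSeq for 4 of the 9 genes, with 5 entries. C3, SAA1, SAA2, C1S and SERPING1 had none. Alternatives were other pseudocounts, filters, scalings and moderation, leaving out each library, and a replicate block. Single values of some genes in the lists are not reported here.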

Additional observations from a re-analysis of the deposited data

Results flagged for a closer look

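The lines B3 and C4 carry the same target, and 8 of the 9 genes differed between them by the fitted comparison of the lines. The values are C4 minus B3 in log2 and describe genes that were chosen with these results known. LCN2 differed by -0.90 and UBD by -0.35. SAA1 differed by 0.53, SAA2 by 0.18, CFB by 1.19, C1R by 0.77, C1S by 0.45 and SERPING1 by 0.60. Of all genes tested, 27.8% were called lower and 28.6% higher in C4 than in B3. With 3 libraries per group, single libraries were not screened for outlying values.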

How the results depend on the processing

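Each comparison was refitted under 19 alternatives. Besides SAA2, each of the 9 genes kept its direction where called and its side of the threshold. The number of the 9 genes called higher in C4 than in WT came to 1 without the filter and 1 with a mean antilog of at least 50, which leaves SAA2 out, and leaving out a library gave 1 to 2. Leaving out a library gave 6943 to 8016 called genes in B3, 8387 to 9271 in C4 and 8364 to 9597 between the lines, against 7876, 9244 and 9284.

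Libraries with the same replicate number did not deviate together (correlations of -0.229 to 0.016, and -0.120 to 0.225 between other libraries of different groups). Pairing by number was therefore not seen, which does not show that it was absent. A replicate block gave 7504, 8961 and 9017 called genes. Unknown depth, a transform that is not named, 1 line per knockout group and uncertain reads between SAA1 and SAA2 limit these results.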

Other observations

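Several genes known from liver varied more between libraries of a group than between groups. TTR had log2 values of 7.61, 6.69 and 6.68 in B3, 6.85, 7.13 and 7.35 in C4, and 6.71, 6.93 and 6.90 in WT. FGB had 7.31, 6.33 and 6.28 in B3, 6.28, 6.59 and 6.92 in C4, and 6.28, 6.51 and 6.70 in WT. In B3 replicate 1 both genes, and SERPINA1 at 9.52 against 8.47 and 8.49 in the other B3 libraries, were highest. SAA1, an acute-phase gene of liver too, was at 9.58 in that library and at 9.60 in the other B3 libraries. These genes were singled out after their values were seen.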
